A study of Homo sapiens with 6 samples.

Results

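Interferon-stimulated genes are the genes that a cell switches on after it has sensed interferon, and 51 of them were followed here in A549 cells with and without silencing of FSCN1, which encodes fascin, a protein that bundles actin filaments. The 51 genes were taken by their symbols from a count table of 30230 genes, and all 51 had a row in it. Of these, 43 had enough counts to be tested among 17076 tested genes, and 8 did not. The rule was a match of gene names to a list of known interferon targets.

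The series holds 6 RNA sequencing libraries of A549, an established human lung adenocarcinoma line, in 2 groups of 3. The NC group is the negative control, which the study's methods describe as cells given a scrambled siRNA, whereas the treatment label of these samples names a control plasmid. The siFSCN1 group received an siRNA against FSCN1, by the study's account 1 of the 3 that it had designed, and all cells were collected 48 h after transfection. By those methods both groups therefore carry a double-stranded RNA and a lipid transfection reagent, and no untransfected group was analysed here. The study calls the libraries of a group biological replicates, but nothing says how far apart the cultures were kept, so the p-values measure the spread between these 3 libraries of 1 cell line under 1 siRNA.

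Interferons are secreted proteins that bind receptors on the cell surface. The receptors activate the kinases JAK1, JAK2 and TYK2, these phosphorylate STAT proteins such as STAT2, which assembles with IRF9 into the complex ISGF3, which binds a DNA element called the ISRE in the promoters of its targets. The products of those targets sense foreign nucleic acid, degrade or sequester viral RNA, block the entry of virus particles, or tag proteins with the ubiquitin-like protein ISG15. Many of them are also transcribed at a low level in resting cells, and some can be induced by IRF1, IRF3 or IRF7 without interferon.

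The libraries held between 27967301 and 36560919 counts. FSCN1 itself, the check of the labels, was at 44.98, 47.24 and 45.99 FPKM in NC and at 4.46, 2.82 and 3.19 FPKM in siFSCN1, a log2 fold change of -3.89 ± 0.094 (SE) with an adjusted p of 8.10e-16. FPKM, the level the authors deposited, is the number of fragments scaled to gene length and to the mapped fragments of the library, and it is the only scale here on which different genes can be compared. The 5 epithelial markers EPCAM, KRT8, KRT18, KRT19 and CDH1 were all detected, with KRT18 between 939 and 1947 FPKM. Of 4 leukocyte markers with a row, PTPRC, CD3E and LYZ had at most 7 counts in a library, and CD14 lay between 2.79 and 4.82 FPKM. Of 5 fibroblast and endothelial markers, COL1A1 was tested with 73 to 133 counts and the other 4 had at most 8. Gene positions are those of GENCODE v44 on GRCh38. Fold changes come from edgeR's quasi-likelihood test with TMM scaling, give siFSCN1 relative to NC, and carry p-values adjusted by the Benjamini-Hochberg method over all 17076 genes. The scale of the comparison matters for small changes: TMM scaling put the median change of the 17076 genes at 0.03 on the log2 scale, whereas scaling to library totals, on which FPKM also rests, put it at 0.22, so FPKM values look higher in siFSCN1 than the fitted changes do.

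The RefSeq table of promoters, which gives 250 bases before to 50 bases after each start on GRCh38.p14, held 40 of the 51 genes. DHX58, OAS2, OASL, IRF7, USP18, IFIT2, IFITM2, MX2, GBP2, TRIM22 and PML had no entry. The core of the ISRE was searched on both strands as GAAA, any 2 bases and GAAA, which reads TTTC, any 2 bases and TTTC on the other strand. It was present in 26 of the 40 promoters (65.0%), in 4.38% of all 27305 genes with a promoter and in 3.85% of the 11452 tested ones. Requiring C or G after the core left the same 26 of 40. The GAS element, searched as TTC, any 3 bases and GAA, was present in 11 of 40 (27.5%) and in 9.38% of all genes. Both motifs hold GAA, so their matches can share bases. A match is a string of letters in a window and was not tested as a binding site.

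The windows that follow are shown because they belong to genes on opposite sides of the comparison. Each has 20 bases on either side of the core nearest to the start, reads 5′ to 3′ along the strand of its gene, and carries every match to the core in capitals. The first 6 belong to genes that rose.
IFIT1, chr10:89392500-89392549, plus strand, core from 103 bases before the start: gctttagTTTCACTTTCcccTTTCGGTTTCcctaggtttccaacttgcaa
ISG20, chr15:88638927-88638976, plus strand, core from 69 bases before the start: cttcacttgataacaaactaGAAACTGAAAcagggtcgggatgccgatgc
SAMD9, chr7:93118086-93118135, minus strand, core from 136 bases before the start: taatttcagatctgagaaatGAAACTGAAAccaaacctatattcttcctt
IFITM1, chr11:314014-314063, plus strand, core from 6 bases before the start: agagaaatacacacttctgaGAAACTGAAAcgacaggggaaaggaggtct
IFITM3, chr11:320866-320915, minus strand, core from 35 bases before the start: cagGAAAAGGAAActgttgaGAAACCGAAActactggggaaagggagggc
PARP9, chr3:122564312-122564361, minus strand, core from 41 bases before the start: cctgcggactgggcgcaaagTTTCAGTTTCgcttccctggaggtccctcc
The next 2 belong to genes that did not pass the test, and both lie beside IFIT1 on chromosome 10.
IFIT3, chr10:89332458-89332507, plus strand, core from 51 bases before the start: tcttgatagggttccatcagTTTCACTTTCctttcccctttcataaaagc
IFIT5, chr10:89414544-89414593, plus strand, core from 4 bases before the start: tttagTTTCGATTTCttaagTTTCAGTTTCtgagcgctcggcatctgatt
The last 4 belong to genes that fell.
ISG15, chr1:1013370-1013419, plus strand, core from 107 bases before the start: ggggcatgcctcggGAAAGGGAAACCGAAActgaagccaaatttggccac
OAS3, chr12:112938442-112938491, plus strand, core from 12 bases before the start: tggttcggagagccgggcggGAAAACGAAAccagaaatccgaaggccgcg
HERC5, chr4:88457025-88457074, plus strand, core from 74 bases before the start: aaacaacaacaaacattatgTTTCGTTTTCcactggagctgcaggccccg
DTX3L, chr3:122564312-122564361, plus strand, core from 6 bases before the start: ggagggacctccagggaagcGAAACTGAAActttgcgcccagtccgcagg
The core of IFITM1, which rose, has the same letters as the core of DTX3L, which fell. The windows of PARP9 and DTX3L are the same bases read from opposite strands, because these genes lie head to head on opposite strands, with their outermost annotated starts 239 bases apart.

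The interferon-stimulated genes moved in both directions when FSCN1 was silenced. Of the 43 tested, 16 rose (37.2%), 17 fell (39.5%) and 10 did not pass an adjusted p of 0.05. Over all tested genes 35.1% rose and 33.2% fell, so the share that moved in each direction was close to that among all tested genes. At a change of at least 2-fold, 6 rose (14%), against 11.7% of all tested genes, and 2 fell (4.65%), against 4.85%. The 6 were IFIT1, IFIT2, IFITM1, ISG20, SAMD9 and SAMD9L, and the 2 were OASL and TRIM21. The median log2 fold change of the 43 was -0.13, beside 0.03 for all tested genes, and the single values ran from -1.72 for OASL to 2.43 for IFIT1. In bulk RNA of this kind, fewer expressing cells and less RNA per cell cannot be told apart. The roles are small groups that were set with earlier results of these data known. Of the ISG15 system 5 of 5 listed genes were lower, and of the IFITM proteins 3 of 3 tested genes were higher. Sensors, GTPases and the ADP-ribosylation group held both directions.

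**Figure D1:**
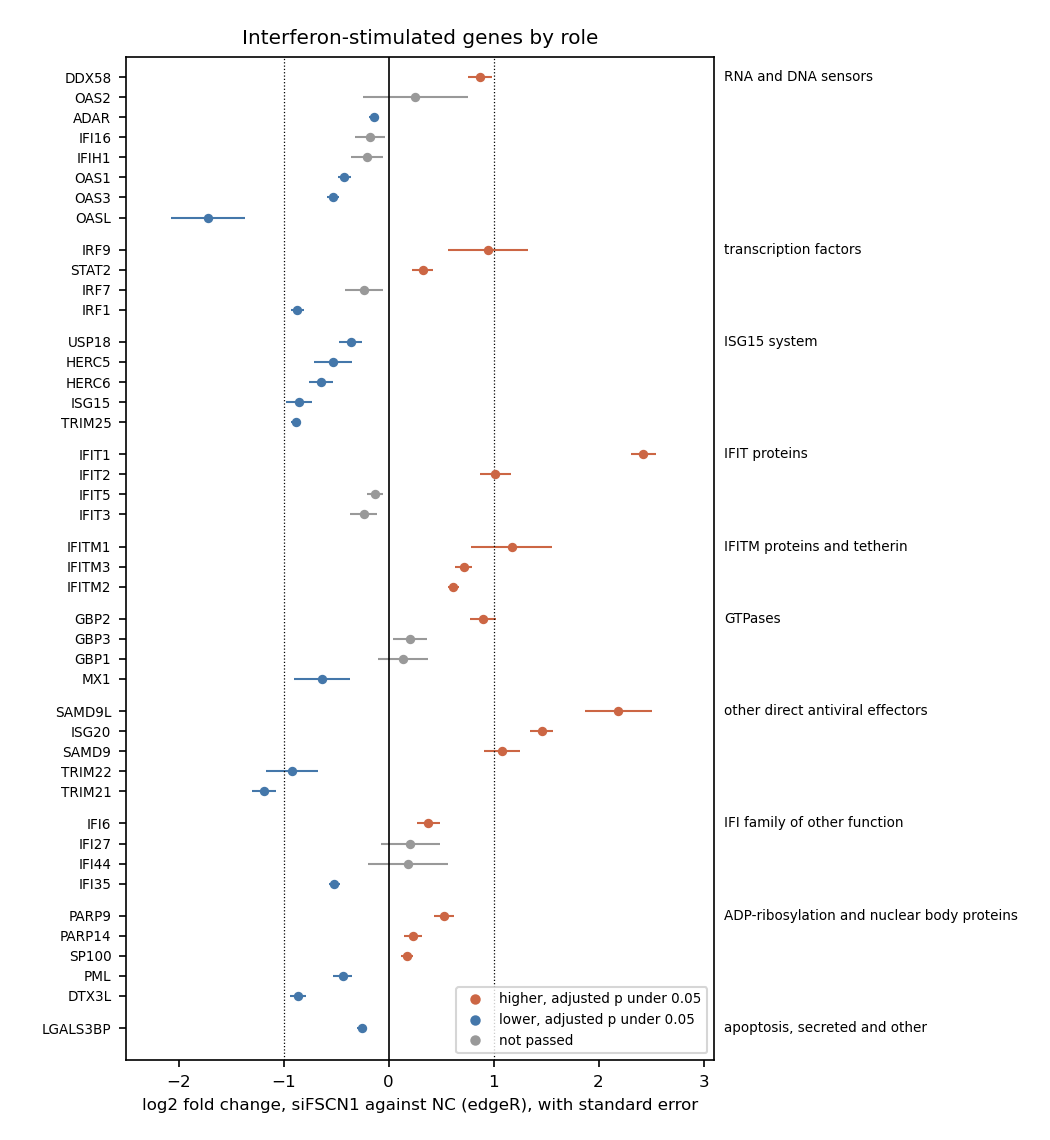
Log2 fold change of siFSCN1 against NC (x axis, edgeR) for each of the 43 tested interferon-stimulated genes, grouped by role, with bars of 1 standard error, dotted lines at a 2-fold change and colour for the call. The 5 listed genes of the ISG15 system lie left of 0 and the 3 IFITM genes lie right of it, whereas the IFIT genes run from -0.24 to 2.43.

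IFIT1, whose product binds viral RNA that lacks the methylation of host caps, gave the largest rise (ENSG00000185745.10, chr10:89392546-89406487, plus strand). Its level was 0.63, 0.49 and 0.69 FPKM in NC and 3.81, 3.41 and 3.76 FPKM in siFSCN1. The 3 siFSCN1 libraries lay close together and all were several times above every NC library. The rise was 5.38-fold, a log2 fold change of 2.43 ± 0.12 SE, adjusted p = 3.91e-12. IFIT2, a partner of IFIT1 in RNA binding (ENSG00000119922.11, chr10:89283694-89309271, plus strand), stood at 0.34, 0.44 and 0.41 FPKM in NC and 0.83, 0.95 and 0.9 FPKM in siFSCN1. Again the groups did not overlap, and the log2 fold change was 1.02 ± 0.15 SE, adjusted p = 7.97e-06. The 2-fold mark was only just reached: it was missed with DESeq2, with DESeq2's scaling in edgeR (0.998), and without NC replicate 1, siFSCN1 replicate 2 or siFSCN1 replicate 3, while the adjusted p stayed under 0.05 in each of these. IFIT2 shares 524 exonic bases with a long non-coding RNA on its own strand, so part of its reads cannot be assigned with certainty. IFIT3, which stabilises IFIT1 on its RNA, was at 1.1, 0.89 and 0.79 FPKM in NC and 0.89, 0.86 and 0.88 FPKM in siFSCN1. Those libraries overlapped and the change did not pass the test (log2 fold change -0.24, adjusted p = 0.12), although it did without NC replicate 3 (-0.36, adjusted p = 0.0206). IFIT5, which binds RNA with a free triphosphate, was at 3.09, 3.52 and 3.21 FPKM in NC and 3.6, 3.12 and 3.36 FPKM in siFSCN1 and also did not pass (log2 fold change -0.13, adjusted p = 0.142).

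The 4 IFIT genes form 1 cluster on chromosome 10, between 89283694 and 89421605, which allows them to be compared within a library, where neither scaling nor depth enters. For each library the counts of one gene were divided by those of its neighbour and the logarithm to base 2 was compared by an exact two-sided permutation test, which for 3 against 3 cannot give a p under 0.1. The same was done for all 23 pairs of tested genes within the clusters of the list, where a cluster joins genes less than 500 kb apart. Of the 23 pairs, 12 reached this smallest p, which is 0.192 after adjustment over the 23 pairs. The same count was not made for pairs of other genes, so it is not read as a trait of these genes. The log2 ratio of IFIT1 to IFIT5 was -2.21, -2.76 and -2.15 in NC and 0.16, 0.21 and 0.24 in siFSCN1, a shift of 2.58 (exact p = 0.1). IFIT1 had fewer counts than IFIT5 in every NC library and more in every siFSCN1 library, and the order in FPKM was the same. The log2 ratio of IFIT2 to IFIT3 moved by 1.25 (exact p = 0.1). In contrast, the log2 ratio of IFIT3 to IFIT5 differed by -0.10 between the groups (exact p = 0.9), and its libraries overlapped.

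The IFITM proteins sit in cell and endosome membranes and hinder the fusion of enveloped viruses. IFITM2, the most abundant of the 3 (ENSG00000185201.17, chr11:303655-309397, plus strand), was at 27.33, 26.5 and 27.6 FPKM in NC and 50.52, 46.47 and 43.26 FPKM in siFSCN1. The lowest siFSCN1 library was well above the highest NC library, and the gene rose 1.53-fold (log2 fold change 0.62 ± 0.054 SE, adjusted p = 9.96e-09). IFITM3 was at 3.77, 4.19 and 3.99 FPKM in NC and 8.39, 6.52 and 7.12 FPKM in siFSCN1 and rose by a similar amount (log2 fold change 0.72 ± 0.080 SE, adjusted p = 2.99e-07). The log2 ratio of IFITM2 to IFITM3 differed by -0.09 between the groups (exact p = 0.3), within the spread of the libraries. IFITM1 was barely transcribed, with counts of 6, 6 and 13 in NC and 26, 17 and 21 in siFSCN1. Its libraries did not overlap between the groups and its fitted log2 fold change was 1.17 ± 0.39 SE, adjusted p = 0.0122. The call was lost with DESeq2 (adjusted p = 0.0717), without NC replicate 1 (0.0518) and without siFSCN1 replicate 1 (0.0585). The 3 genes resemble each other, and 17.9% of the 100-base words of IFITM1, 6.81% of those of IFITM2 and 8.26% of those of IFITM3 also occur in another gene, so some of their reads are uncertain. BST2, or tetherin, which holds budding virus at the cell surface, had counts of 30, 8 and 8 in NC and 2, 5 and 5 in siFSCN1 and was not tested.

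**Figure D2:**
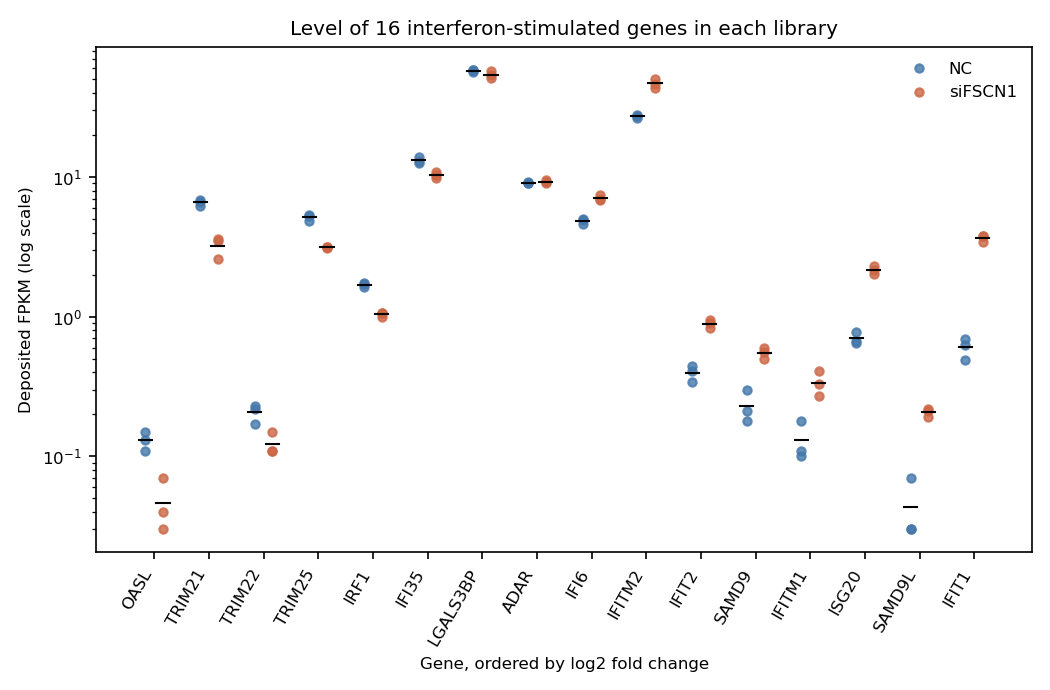
Deposited FPKM (y axis, log scale) in each of the 3 NC and 3 siFSCN1 libraries for 16 genes, namely those called at least 2-fold, the 5 largest rises and falls and the 5 of highest mean FPKM, ordered by log2 fold change, with a bar at each group mean. The groups stand apart for OASL and TRIM21 on the left and for ISG20, SAMD9L and IFIT1 on the right, and they overlap for LGALS3BP and ADAR in the middle.

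Of the other direct antiviral effectors, 3 rose and 2 fell. ISG20, an exonuclease that degrades single-stranded RNA (ENSG00000172183.16, chr15:88635670-88656483, plus strand), was at 0.78, 0.65 and 0.67 FPKM in NC and 2.17, 2.32 and 2.01 FPKM in siFSCN1. The lowest siFSCN1 library was more than 2 times the highest NC library, and the gene rose 2.75-fold (log2 fold change 1.46 ± 0.11 SE, adjusted p = 1.05e-09). SAMD9 and SAMD9L are paralogues side by side on chromosome 7 that restrain translation and poxvirus growth. SAMD9 (ENSG00000205413.8, chr7:93099513-93118023, minus strand) was at 0.21, 0.18 and 0.3 FPKM in NC and 0.56, 0.5 and 0.6 FPKM in siFSCN1 and rose 2.12-fold (log2 fold change 1.08 ± 0.17 SE, adjusted p = 2.10e-05), or by 0.94 on the log2 scale without NC replicate 2. SAMD9L (ENSG00000177409.12, chr7:93130056-93148385, minus strand) was close to silent in NC, with counts of 7, 16 and 9 in NC and 53, 56 and 59 in siFSCN1. All 3 siFSCN1 libraries lay far above the NC libraries, and the log2 fold change was 2.19 ± 0.32 SE, adjusted p = 7.63e-06. The log2 ratio of SAMD9 to SAMD9L had a mean of 2.51 in NC and 1.36 in siFSCN1 (exact p = 0.3), and the groups overlapped.

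The 2 falls in this group were of TRIM proteins. TRIM21, a ubiquitin ligase that also acts as a receptor for antibodies inside the cell (ENSG00000132109.10, chr11:4384897-4393702, minus strand), was at 6.62, 6.24 and 6.86 FPKM in NC and 3.59, 2.61 and 3.5 FPKM in siFSCN1. Its siFSCN1 libraries were all lower than its NC libraries, and the gene fell 2.28-fold (log2 fold change -1.19 ± 0.11 SE, adjusted p = 3.75e-08). TRIM22, a relative with activity against several viruses, was at 0.23, 0.22 and 0.17 FPKM in NC and 0.11, 0.15 and 0.11 FPKM in siFSCN1 and also fell (log2 fold change -0.92 ± 0.25 SE, adjusted p = 0.00339). TRIM22 shares 642 exonic bases with OR56B1 on the same strand, so some of its reads are uncertain. RSAD2 and CMPK2, neighbours that encode viperin and a nucleotide kinase, were too low to test. RSAD2 had counts of 2, 1 and 5 in NC and 0, 0 and 0 in siFSCN1, and a count of 0 allows up to 3 counts in a library, so no fold is given. CMPK2 had counts of 7, 18 and 15 in NC and 8, 9 and 9 in siFSCN1.

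All 5 genes listed under the ISG15 system were lower. The list does not cover the whole system: UBE2L6 and UBA7, enzymes of ISG15 conjugation, were on the pathway list instead. UBE2L6 fell (log2 fold change -0.53, adjusted p = 1.03e-07), and UBA7, with at most 22 counts, did not pass (log2 fold change -0.21, adjusted p = 0.650). ISG15, the ubiquitin-like modifier itself (ENSG00000187608.10, chr1:1001138-1014540, plus strand), was at 7.89, 6.55 and 6.89 FPKM in NC and at 4.82, 4.16 and 4.26 FPKM in siFSCN1. Each siFSCN1 library was lower than each NC library, with a fall of 1.81-fold (log2 fold change -0.85 ± 0.12 SE, adjusted p = 5.32e-06). TRIM25, a ligase that ubiquitinates the RNA sensor RIG-I and can transfer ISG15 (ENSG00000121060.19, chr17:56836387-56914080, minus strand), was at 4.85, 5.28 and 5.32 FPKM in NC and 3.16, 3.1 and 3.15 FPKM in siFSCN1. The libraries of each group lay close together, and the fall of 1.84-fold had a small error (log2 fold change -0.88 ± 0.049 SE, adjusted p = 2.10e-11). HERC6 (log2 fold change -0.64 ± 0.12 SE, adjusted p = 9.51e-05) and HERC5, the main ISG15 ligase in human cells (log2 fold change -0.53 ± 0.18 SE, adjusted p = 0.0135), both fell, and their log2 count ratio differed by -0.11 between the groups (exact p = 0.5). USP18, which removes ISG15 and also restrains the type I receptor, fell least (log2 fold change -0.36 ± 0.11 SE, adjusted p = 0.00781). With scaling to library totals all 5 kept a negative change, but HERC5 (adjusted p = 0.10) and USP18 (adjusted p = 0.176) no longer passed. HERC5 also lost its call without NC replicate 3 (adjusted p = 0.0571) or siFSCN1 replicate 1 (adjusted p = 0.0527). USP18 shares 15.5% of its 100-base words with copies that include USP41, so its reads are partly uncertain.

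Among the sensors, 1 rose, 4 fell and 3 did not pass. DDX58, the gene of RIG-I, the sensor of RNA with a triphosphate end, was at 0.48, 0.67 and 0.6 FPKM in NC and 1.17, 1.19 and 1.24 FPKM in siFSCN1, so that the groups did not overlap, and it rose 1.83-fold (log2 fold change 0.87 ± 0.11 SE, adjusted p = 2.02e-06). An annotated gene on the same strand covers 4471 of its exonic bases and holds 40.8% of its 100-base words, and reads of the pair cannot be separated with certainty. IFIH1, the gene of MDA5, the sensor of long double-stranded RNA, did not pass (log2 fold change -0.21, adjusted p = 0.234), nor did the DNA sensor IFI16 (log2 fold change -0.18, adjusted p = 0.28). Relative to genes of like mean FPKM both passed as lower (IFIH1 -0.55, adjusted p = 0.00403, and IFI16 -0.52, adjusted p = 0.00378). DHX58, the third helicase of the family, had counts of 4, 0 and 6 in NC and 5, 5 and 11 in siFSCN1 and was not tested.

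The oligoadenylate synthetases bind double-stranded RNA and make the messenger that activates RNase L. OAS1 was at 2.78, 2.54 and 2.75 FPKM in NC and 2.48, 2.27 and 2.03 FPKM in siFSCN1 and OAS3 at 2.33, 2.37 and 2.23 FPKM in NC and 1.74, 1.89 and 1.78 FPKM in siFSCN1. Both were lower in every siFSCN1 library, OAS1 by a log2 fold change of -0.42 ± 0.064 SE, adjusted p = 1.25e-05, and OAS3 by one of -0.53 ± 0.055 SE, adjusted p = 1.14e-07. The log2 count ratio of these neighbours differed by 0.11 between the groups (exact p = 0.5), and its libraries overlapped. OAS2, in the same cluster, had a mean of 0.0167 FPKM in NC and did not pass (log2 fold change 0.26, adjusted p = 0.663). OASL, a member without the enzyme activity that binds RIG-I (ENSG00000135114.13, chr12:121017763-121039246, minus strand), had counts of 35, 28 and 30 in NC and 16, 6 and 10 in siFSCN1. No siFSCN1 library reached the lowest NC library, and the fitted fall was 3.28-fold (log2 fold change -1.72 ± 0.35 SE, adjusted p = 3.12e-04). ADAR, which edits adenosine to inosine in double-stranded RNA (ENSG00000160710.18, chr1:154581695-154628013, minus strand), is a case where the scale decides: it was at 9.2, 9.04 and 9.08 FPKM in NC and 9.09, 9.2 and 9.51 FPKM in siFSCN1, where the groups overlapped, and its fitted log2 fold change was -0.14 ± 0.040 SE, adjusted p = 0.00473, but 0.05 (adjusted p = 0.331) with scaling to library totals.

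Of the transcription factors, STAT2 and IRF9, which are parts of ISGF3, both rose, and IRF1 fell. STAT2 was at 1.1, 1.17 and 1.27 FPKM in NC and 1.61, 1.75 and 1.63 FPKM in siFSCN1, with every siFSCN1 library above NC (log2 fold change 0.32 ± 0.10 SE, adjusted p = 0.00943), and it lost its call relative to genes of like mean FPKM (0.23, adjusted p = 0.0628). IRF9 had few counts assigned to it, 13, 4 and 19 in NC and 26, 31 and 21 in siFSCN1. It shares 1544 exonic bases and 15.4% of its 100-base words with another annotated gene on its own strand. Part of its reads therefore cannot be assigned with certainty. The rise of IRF9 (log2 fold change 0.95 ± 0.38 SE, adjusted p = 0.0366) was lost with DESeq2 (adjusted p = 0.119) and when NC replicate 1, NC replicate 2, siFSCN1 replicate 1 or siFSCN1 replicate 2 was left out (adjusted p from 0.0554 to 0.170), and with the replicate number as a block the adjusted p was 0.0563. Relative to genes of like mean FPKM the rise of IRF9 shrank to 0.39 (adjusted p = 0.390). IRF1, an activator that can reach ISREs without interferon (ENSG00000125347.15, chr5:132440440-132508719, minus strand), was at 1.62, 1.72 and 1.74 FPKM in NC and 1.06, 0.99 and 1.07 FPKM in siFSCN1. All siFSCN1 libraries lay below NC, and the fall of 1.83-fold (log2 fold change -0.87 ± 0.061 SE, adjusted p = 5.23e-10) kept its call under each alternative. IRF1 shares 2805 exonic bases with the antisense RNA IRF1-AS1, and the strand setting of the counting was not given in the sources used here, so reads of the 2 cannot be told apart. IRF7, the factor that amplifies interferon production, did not pass (log2 fold change -0.24, adjusted p = 0.262).

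The GTPases were mixed. GBP2, of the guanylate-binding proteins that attack vacuoles of intracellular pathogens, was at 0.65, 0.53 and 0.54 FPKM in NC and 1.08, 1.26 and 1.25 FPKM in siFSCN1 and rose 1.86-fold (log2 fold change 0.90 ± 0.12 SE, adjusted p = 3.89e-06), while its neighbours GBP1 (log2 fold change 0.14, adjusted p = 0.612) and GBP3 (log2 fold change 0.21, adjusted p = 0.259) did not pass. The log2 count ratio of GBP1 to GBP2 lay between -2.34 and -1.66 in NC and between -2.85 and -2.49 in siFSCN1 (exact p = 0.1), so the groups did not overlap. GBP2 shares 621 exonic bases with GBP7. MX1, the gene of a GTPase that traps viral nucleocapsids, had counts of 52, 35 and 40 in NC and 41, 29 and 23 in siFSCN1. Its groups overlapped after scaling, and its fall (log2 fold change -0.63, adjusted p = 0.0449) was lost under DESeq2 (adjusted p = 0.108) and when any library but NC replicate 3 or siFSCN1 replicate 1 was left out (adjusted p from 0.0612 to 0.195). The call of MX1 was also lost with scaling to library totals (0.143), upper quartile scaling (0.0978) and a stricter filter (0.0519). It was lost with limma on log2(FPKM + 0.1) (0.239) and log2(FPKM + 1) (0.340) as well. MX2 had counts of 1, 0 and 0 in NC and 2, 3 and 7 in siFSCN1 and was not tested.

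PARP9 and DTX3L encode an ADP-ribosyltransferase and a ubiquitin ligase that work as 1 complex, and they share the promoter printed above. Their changes were opposite in sign. PARP9 (ENSG00000138496.17, chr3:122527924-122564577, minus strand) was at 0.89, 0.96 and 0.87 FPKM in NC and 1.56, 1.38 and 1.47 FPKM in siFSCN1 and rose (log2 fold change 0.53 ± 0.094 SE, adjusted p = 7.30e-05). DTX3L (ENSG00000163840.10, chr3:122564338-122575203, plus strand) was at 2.93, 2.89 and 2.93 FPKM in NC and 1.88, 1.8 and 1.72 FPKM in siFSCN1 and fell (log2 fold change -0.86 ± 0.074 SE, adjusted p = 8.43e-09). The log2 ratio of PARP9 to DTX3L counts was -1.09, -0.97 and -1.11 in NC and 0.36, 0.24 and 0.40 in siFSCN1, a shift of 1.39 (exact p = 0.1, adjusted over the pairs 0.192). The change of sign is one of counts, which are not scaled to gene length: in FPKM DTX3L stayed above PARP9 in every library of both groups, and the gap narrowed. The genes overlap over 139 exonic bases on opposite strands, and they were singled out after their values were seen. PARP14, a relative in the same cluster, rose slightly (log2 fold change 0.23, adjusted p = 0.0224), with groups that overlapped after TMM scaling. SP100, a nuclear body protein, rose slightly too (log2 fold change 0.18, adjusted p = 0.0129), and PML, which builds those bodies, fell (log2 fold change -0.43 ± 0.090 SE, adjusted p = 3.50e-04). The calls of PARP14 (adjusted p = 0.0875) and SP100 (adjusted p = 0.134) were lost with DESeq2, and both were lost without NC replicate 3 (0.0752 and 0.0913) or siFSCN1 replicate 3 (0.230 and 0.111), that of PARP14 also without NC replicate 1 (0.133). PML lost its call with limma on log2(FPKM + 0.1) (adjusted p = 0.0639) and log2(FPKM + 1) (0.0503).

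**Figure D3:**
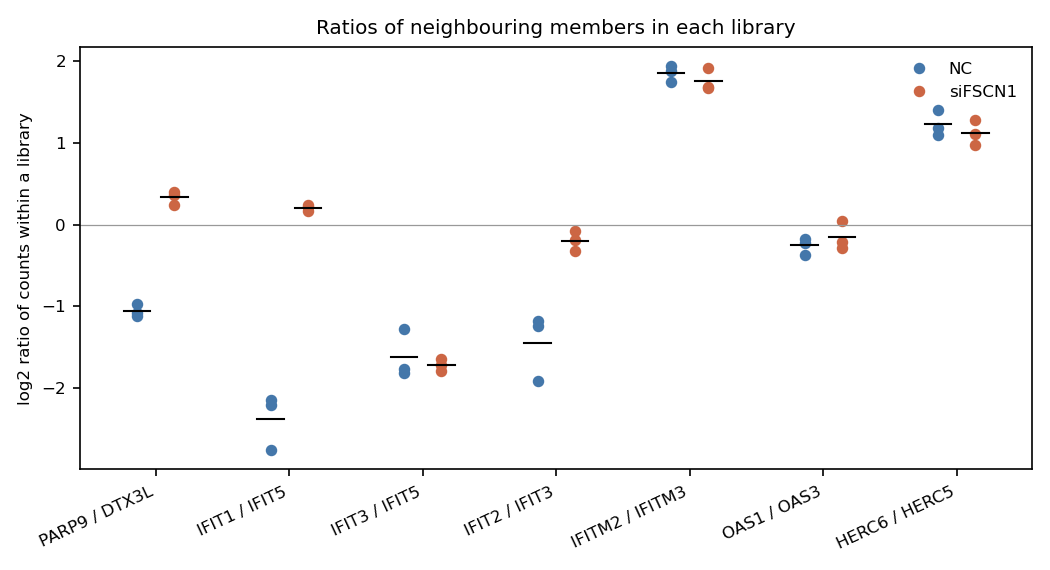
Log2 ratio of the counts of neighbouring genes (y axis) in each of the 3 NC and 3 siFSCN1 libraries for 7 of the 23 pairs, with a bar at each group mean. The ratios are of counts and not scaled to gene length. PARP9 to DTX3L and IFIT1 to IFIT5 change sign between the groups on this scale, and IFIT3 to IFIT5, IFITM2 to IFITM3, OAS1 to OAS3 and HERC6 to HERC5 overlap.

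Of the IFI genes of other function, 1 rose and 1 fell. IFI6, a small protein that blocks apoptosis and the replication of flaviviruses (ENSG00000126709.16, chr1:27666064-27672212, minus strand), was at 4.6, 5 and 4.93 FPKM in NC and 7.41, 6.8 and 6.99 FPKM in siFSCN1. The groups stood apart and the gene rose 1.3-fold (log2 fold change 0.38 ± 0.11 SE, adjusted p = 0.00493). IFI6 shares 216 exonic bases with the long non-coding RNA LINC02574 on its own strand, so some of its reads are uncertain. IFI35, a leucine zipper protein with a role in innate signalling (ENSG00000068079.8, chr17:43006740-43014456, plus strand), was at 13.09, 12.52 and 13.8 FPKM in NC and 10.87, 9.82 and 10.28 FPKM in siFSCN1 and fell 1.43-fold (log2 fold change -0.52 ± 0.053 SE, adjusted p = 9.91e-08). IFI27 (log2 fold change 0.21, adjusted p = 0.524) and IFI44 (log2 fold change 0.19, adjusted p = 0.675), which are among the most inducible genes in many tissues, did not pass and had under 0.3 FPKM in every library. IFI44L, with counts of 7, 8 and 5 in NC and 9, 15 and 16 in siFSCN1, XAF1, a proapoptotic protein, with counts of 13, 1 and 2 in NC and 1, 0 and 1 in siFSCN1, and EPSTI1, with counts of 10, 0 and 9 in NC and 12, 2 and 4 in siFSCN1, were not tested.

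LGALS3BP, a secreted glycoprotein that binds galectins (ENSG00000108679.13, chr17:78971238-78979947, minus strand), was the most abundant of the 51 genes. It was at 57.97, 56.23 and 58.4 FPKM in NC and 57.28, 53.5 and 51.34 FPKM in siFSCN1, and the groups overlapped on that scale. Its fitted fall (log2 fold change -0.26 ± 0.040 SE, adjusted p = 1.80e-05) became -0.07 (adjusted p = 0.0995) with scaling to library totals. It alone took 27.2% of the summed CPM, the counts after scaling of library sizes, of the list in NC and 24.9% in siFSCN1. CPM is not scaled to gene length, so these are shares of counts and depend on the lengths of the genes. The sum over the list was 912 ± 7.99 CPM (SD, n = 3) for NC with TMM scaling and 831 ± 13 CPM (SD, n = 3) for siFSCN1, a ratio of 0.911 (exact two-sided permutation p = 0.1, the smallest for 3 against 3). In FPKM the sums were 167 ± 2.76 (SD, n = 3) and 183 ± 8.90 (SD, n = 3), a ratio of 1.10 with the same p. With the counts scaled to library totals the ratio was 1.04, so the direction of the sum depended on the scaling.

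Split into deciles of mean FPKM, the tested genes had a median log2 fold change of 0.56 in the lowest decile and -0.32 in the highest. Of the 51 genes, 10 had a mean below 0.1 FPKM, 20 between 0.1 and 1, 18 between 1 and 10 and 3 above. Of those tested, 0 of 3 rose and 2 fell in the lowest of these classes, and 7 of 19 rose and 4 fell in the second. In the third, 8 of 18 rose and 9 fell, and in the highest 1 of 3 rose and 2 fell. The shares of all tested genes called within these classes were not computed, so the class counts have no background beside them. Relative to the median of their decile, 3 genes were at least 2-fold higher, IFIT1, ISG20 and SAMD9L, and 4 at least 2-fold lower, OASL, MX1, TRIM21 and TRIM22. On that scale IFIT2, SAMD9 and IFITM1 fell short of 2-fold. Calls were lost by IFITM1 (adjusted p = 0.112), IRF9 (0.390), STAT2 (0.0628), PARP14 (0.178), SP100 (0.263), ADAR (0.130) and LGALS3BP (0.156). IFIH1 (adjusted p = 0.00403), IFI16 (0.00378) and IFIT3 (log2 fold change -0.41, adjusted p = 0.0120) gained a call as lower. This left 11 genes higher and 18 lower.

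The ISRE core was found on both sides of the comparison. A core was found in 8 of the 13 higher genes with a promoter entry (61.5%), in 7 of 13 lower genes (53.8%), in 7 of 8 that did not pass (87.5%) and in 4 of 6 not tested (66.7%). SAMD9L, IRF9 and DDX58 rose with no core in these windows, and TRIM25 and IRF1 fell with none. The GAS element was in 3 of 13 higher genes and 4 of 13 lower ones.

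**Figure D4:**
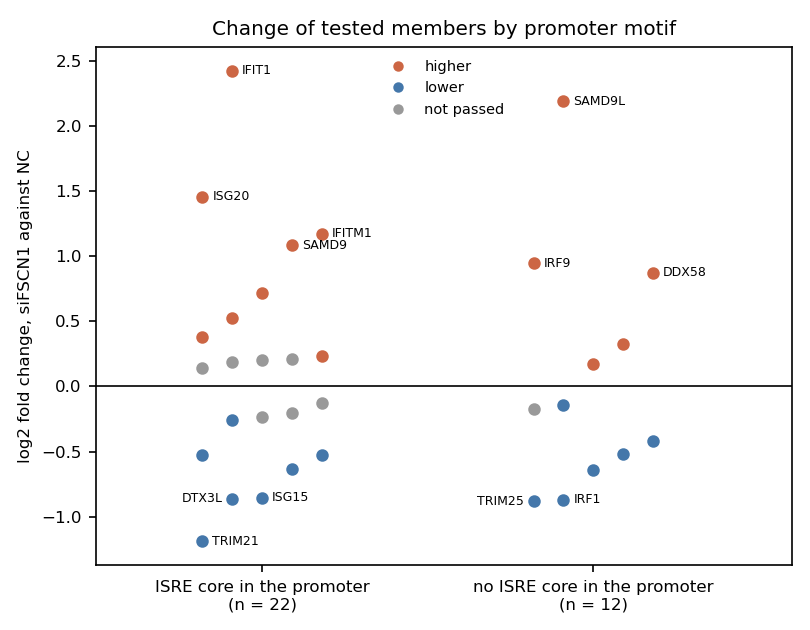
Log2 fold change of siFSCN1 against NC (y axis, edgeR) for the 34 tested genes with a RefSeq promoter, split by whether the promoter holds the ISRE core (22 genes) or not (12 genes), with colour for the call and the horizontal spread for legibility only. Both columns hold genes above and below 0, with IFIT1 at 2.43 and TRIM21 at -1.19 among those with a core.

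The other genes of the pathway were read from a list of 73, of which 62 had a row and 56 were tested. Of these 56, 14 rose (25%), 25 fell (44.6%) and 17 did not pass, beside 35.1% and 33.2% of all tested genes. With scaling to library totals the split was 24 higher and 15 lower, so these counts rest on the scaling. The background moved up under it as well, with a median change of 0.22 in place of 0.03. How many background genes rose or fell under that scaling was not computed. The split of 24 and 15 therefore cannot be set against other genes. With TMM scaling and a change of at least 2-fold, 1 of the 56 rose (1.79%), against 11.7% of all tested genes, and 5 fell (8.93%), against 4.85%. IFNB1, the gene of interferon beta, had no row, nor had IFNG, IFNK, IFNW1 or IFNL1 to IFNL3. IFNA1 had no count in 5 libraries and 4 in siFSCN1 replicate 2. The ligand gene that was tested was IFNE, an interferon of the reproductive tract epithelium (ENSG00000184995.7, chr9:21480839-21482313, minus strand), with counts of 13, 17 and 19 in NC and 108, 102 and 121 in siFSCN1. The siFSCN1 libraries were all far above NC, and it rose 5.92-fold (log2 fold change 2.57 ± 0.21 SE, adjusted p = 5.66e-09). IFNE lies within an intron of the long non-coding gene MIR31HG on the same strand, and MIR31HG itself did not pass (0.18, adjusted p = 0.238).

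Of the receptors, IFNAR1 fell (log2 fold change -0.48, adjusted p = 4.54e-07), with 4.18, 4.05 and 3.97 FPKM in NC and 3.55, 3.17 and 3.07 FPKM in siFSCN1. Its partner IFNAR2 (log2 fold change -0.25, adjusted p = 0.00154) and the interferon gamma chain IFNGR2 (log2 fold change -0.19, adjusted p = 0.0034) also fell, but with scaling to library totals these gave adjusted p-values of 0.410 and 0.976. IFNGR1 rose slightly (log2 fold change 0.15, adjusted p = 0.0159). IFNLR1, the specific chain of the type III receptor, was at 0.39, 0.48 and 0.47 FPKM in NC and 0.19, 0.3 and 0.2 FPKM in siFSCN1 and fell 2.19-fold (log2 fold change -1.13 ± 0.21 SE, adjusted p = 9.58e-05), whereas its shared chain IL10RB, with at most 22 counts, did not pass (log2 fold change 0.77, adjusted p = 0.104). Both IFNAR2 and IL10RB overlap an annotated readthrough of the pair on the same strand.

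The kinase JAK1 rose (log2 fold change 0.14, adjusted p = 0.007) and TYK2 did not pass (log2 fold change 0.03, adjusted p = 0.652). JAK2 rose more than JAK1 (log2 fold change 0.68, adjusted p = 1.86e-04), and STAT3 rose too (log2 fold change 0.59, adjusted p = 7.12e-10). IRF3, the factor that starts interferon transcription downstream of the sensors, was at 21.3, 21.79 and 22.93 FPKM in NC and 15.79, 14.64 and 13.25 FPKM in siFSCN1 and fell 1.7-fold (log2 fold change -0.76 ± 0.054 SE, adjusted p = 5.86e-10). STING1, the adaptor of cytosolic DNA sensing, fell 2.26-fold from a low level, with counts of 37, 30 and 35 in NC and 22, 13 and 16 in siFSCN1 (log2 fold change -1.18, adjusted p = 0.00175). IKBKE, a kinase of IRF3, was at 2.57, 2.64 and 2.5 FPKM in NC and 1.41, 1.28 and 1.37 FPKM in siFSCN1 and fell 2.13-fold (log2 fold change -1.09 ± 0.11 SE, adjusted p = 4.32e-08). SOCS1, the feedback inhibitor of JAK kinases, was at 0.61, 0.89 and 0.71 FPKM in NC and 0.4, 0.34 and 0.38 FPKM in siFSCN1 and fell 2.19-fold (log2 fold change -1.13, adjusted p = 5.16e-04). PLSCR1, a phospholipid scramblase induced by interferon, was at 4.44, 4.57 and 4.63 FPKM in NC and 1.92, 1.86 and 2.12 FPKM in siFSCN1 and fell 2.59-fold (log2 fold change -1.38 ± 0.075 SE, adjusted p = 1.61e-11). For IRF3, STING1, IKBKE, SOCS1 and PLSCR1 the siFSCN1 libraries were below every NC library. All but IRF3 were named for a call of at least 2-fold, which favours such separation. The share of all tested genes that separate in this way was not computed.

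**Figure D5:**
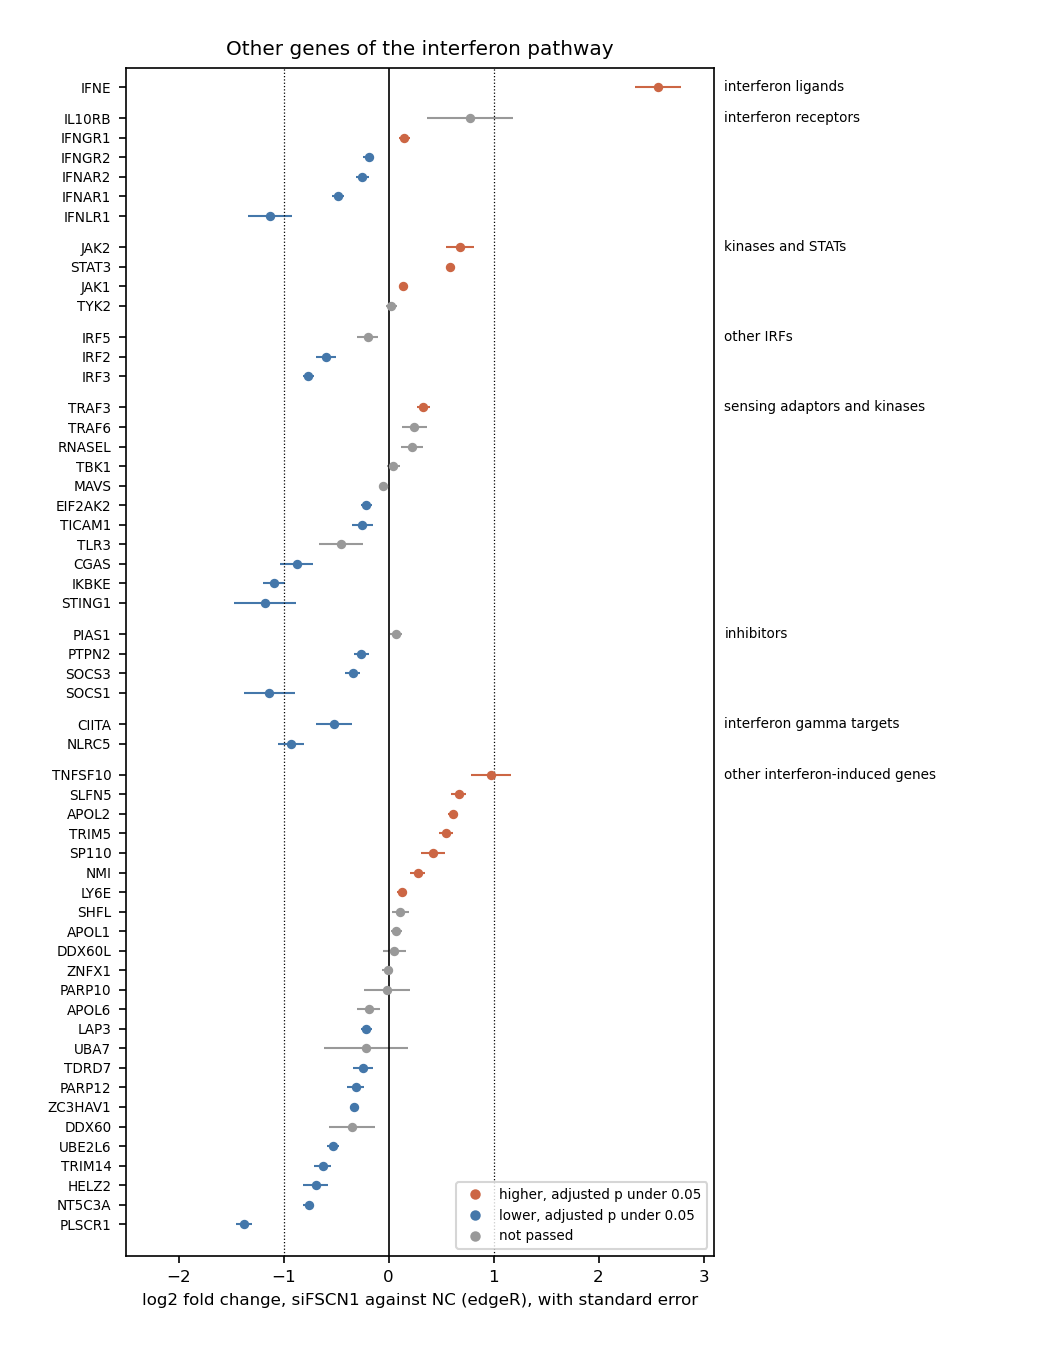
Log2 fold change of siFSCN1 against NC (x axis, edgeR) for the 56 tested genes of the interferon pathway outside the list of 51 other than 1 that is not reported here, grouped by role, with bars of 1 standard error, dotted lines at a 2-fold change and colour for the call. IFNE lies at 2.57, PLSCR1 at -1.38, and the kinases and STATs lie at or right of 0 while 4 of 6 receptor genes lie left of it with a call.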

How the data were processed

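Polyadenylated RNA of 6 A549 libraries was sequenced as paired ends. The authors trimmed reads with the FASTX Toolkit, used HISAT2 with GRCh38 and kept unique reads, per the study's methods, whereas the submitters' processing notes name TopHat2 and bcl2fastq. How reads were counted, with which strand setting and annotation, is not given in the sources used here. The authors deposited raw read counts per gene and, in a second table, FPKM.

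Groups came from the sample titles. Gene coordinates and overlaps came from GENCODE v44 (99.7% of identifiers matched), promoters from RefSeq. Counts of 3 NC and 3 siFSCN1 libraries were filtered by filterByExpr, scaled by TMM and compared across all genes with edgeR 4.0.16 (R 4.3.3, quasi-likelihood test, no covariate, Benjamini-Hochberg adjustment). The code was tested on simulated counts. Libraries of a group differed by more than sampling noise (chi-square over degrees of freedom between 3.11 and 8.23), so none was counted as a duplicate. The authors' own test was DESeq2, run here as an alternative (1.42.0), beside limma 3.58.1 on log2(FPKM + 0.1) and log2(FPKM + 1), other scalings and filters, the replicate block, and each library left out.

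Genes given library by library were those called at least 2-fold, the 5 largest rises and falls, and the 5 of highest mean FPKM. Pathway genes were named if called at least 2-fold or if they were receptors, JAK1, TYK2, IRF3 or IFNB1, and 1 gene of that rule and 1 marker are not reported here. Values of further genes were added where a sentence turns on them. The members, lists, neighbouring pairs and tests were chosen with earlier results of these data known. Intervals and floors cover counting error only.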

Additional observations from a re-analysis of the deposited data

How the results depend on the processing

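Of the 43 tested interferon-stimulated genes, 23 kept their direction and their side of the threshold in each of the 16 alternative fits that tested them, the stricter filter leaving some out, and FSCN1 fell in all 16 (log2 fold change -4.11 to -3.41). The count of higher genes stayed within 1.5 times the 16 reported. Scaling to library totals gave 24 pathway genes higher and 15 lower, a median log2 fold change of 0.058 over the 43 genes, 0.046 for ADAR and a summed level ratio of 1.04. Upper quartile scaling gave a median of -0.011 and a summed ratio of 0.989. These scalings moved the median of all genes to 0.22 and 0.15. The summed FPKM ratio was 1.10. With limma on log2(FPKM + 0.1), 1 gene was at least 2-fold lower, 15 pathway genes were lower, the median was 0.036 and ADAR was at 0.025. With log2(FPKM + 1), which shrinks changes of low genes, 11 genes were lower, 1 was at least 2-fold higher and 0 at least 2-fold lower, 15 pathway genes were lower, and the median and ADAR were both at 0.022. Without a filter 5 genes were at least 2-fold lower (OASL, BST2, RSAD2, TRIM21 and XAF1), and with a stricter filter, which drops OASL, 1 was. Relative to the tenth of mean FPKM, 3 genes were at least 2-fold higher and 4 lower, the median was -0.30, ADAR was at 0.071 and LGALS3BP at 0.067. The cause of the other differences was not tested. Leaving out 1 library gave 13 to 15 higher and 16 to 17 lower genes, 4 to 7 and 2 to 3 at 2-fold, a median of -0.16 to -0.086, FSCN1 at -4.11 to -3.77 and a summed ratio of 0.904 to 0.918. Samples of the same replicate number did not deviate together (correlations of -0.035, 0.040 and -0.084), so the number was not taken as a pairing. With it as a block 6 genes were at least 2-fold higher and 2 lower, and IRF9 lost its call. Depth limits the 8 untested genes. It also limits IFITM1, IRF9, OASL, SAMD9L, MX1, TRIM22, GBP1, IFI27, IFI44 and OAS2, each with under 65 counts in every library.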
